A study of Homo sapiens with 8 samples.

Results

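The genes described here act in the G2 phase of the cell cycle and in mitosis, when a cell condenses its replicated chromosomes, builds a spindle, separates the sister chromatids and divides. They were chosen by name, with earlier results of these data known, as a list of 55 gene symbols. Of the 55, 47 had a named transcript cluster, the array's unit for 1 transcribed locus, among 16098 named and 53617 in all. The other 8 symbols (ANLN, CENPE, CENPF, DLGAP5, NCAPG, NCAPH, TPX2 and UBE2C) carry no name in the platform annotation and were not analysed here. Each of the 47 genes had 1 transcript cluster, and all 47 passed the filter on low signal, which asked for at least 2 arrays above their own median. The lowest value of any of them on any array was 6.25 on the log2 scale, for PTTG1, while the array medians lay between 5.47 and 5.55.

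All RNA came from HEK293T, a human embryonic kidney line that makes the SV40 large T antigen, which binds the p53 and retinoblastoma proteins. One array each held cells transfected with wild-type TET1-CD, catalytically mutant mTET1-CD, wild-type TET1-FL, mutant mTET1-FL or the empty vector, with FACS sorting of the transfected cells after 3 days. Each of the 3 remaining arrays held 1 lentiviral shRNA clone, namely shTET1#1 and shTET1#2, made with different shRNAs against TET1, and shControl, made with a control shRNA. TET1 oxidises 5-methylcytosine in DNA, and the design asked what losing it, supplying it, or supplying it without catalytic activity does to gene expression. No label names replicate cultures, and precision is limited by how few arrays there are.

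The labels were checked first. TET1 cluster 16715048 stood at 12.10 and 12.03 with TET1-CD and mTET1-CD and at 11.80 and 11.91 with TET1-FL and mTET1-FL, against 5.86 with the vector. At cluster 16705381 TET1-CD and mTET1-CD stood at 10.42 and 11.05, and TET1-FL and mTET1-FL at 12.22 and 12.47, against 9.51 with the vector. The plasmid arrays thus lay close together at the first cluster, while the second was higher with FL than with CD. TET1 cluster 16705381 stood at 8.62 in shTET1#1 and 9.14 in shTET1#2, against 9.29 in shControl. Cluster 16715048 stood at 5.27 and 6.20 in the same clones, against 5.71 in shControl. These values lie near the array medians (5.47 to 5.55), so this cluster says little about the TET1 level of the clones. Both clusters were thus lower than the control in shTET1#1, while in the second clone 1 was slightly lower and 1 higher, and it is called the array labelled shTET1#2. Of 8 genes fixed as markers of this line, 3 had a named cluster (PAX2, KRT8 and KRT18), and all 3 lay above the median on all 8 arrays. Of 10 genes of other cell types, 4 had a named cluster, with ALB and PECAM1 below the median on all 8 arrays. DES and GFAP lay above it on all 8, at 6.15 to 7.11 and 5.53 to 6.22. PAX2 and KRT8 thus overlapped DES in level, and only KRT18 stood clear of it.

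Entry into mitosis is driven by the kinase CDK1 bound to cyclins A and B, which CDC25 phosphatases switch on and which Polo-like and Aurora kinases assist. The spindle checkpoint (BUB1, BUB1B, BUB3, MAD2L1, TTK) then holds back CDC20, the activator of the anaphase-promoting complex, until every chromosome is attached. Transcription of these genes peaks in G2 and mitosis, through the MuvB complex with MYBL2 and FOXM1, which acts at a short element called the cell cycle genes homology region, and through the factor NF-Y, which binds CCAAT boxes nearby. In resting cells the same element is bound by the repressive DREAM complex, and p53 is known to lower these genes through it.

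To illustrate sequence features held by many promoters of the list, those of 5 genes picked by name are shown. They come from RefSeq on build GRCh38.p14 and run from 250 bases before the annotated start to 50 after it, 5′ to 3′ on the gene's strand. Capitals mark TTTGAA and TTTAAA, forms of the homology region, and CCAAT, each on either strand (TTTGAA reads TTCAAA and CCAAT reads ATTGG on the other strand).
HMMR (chr5:163460382-163460681, + strand): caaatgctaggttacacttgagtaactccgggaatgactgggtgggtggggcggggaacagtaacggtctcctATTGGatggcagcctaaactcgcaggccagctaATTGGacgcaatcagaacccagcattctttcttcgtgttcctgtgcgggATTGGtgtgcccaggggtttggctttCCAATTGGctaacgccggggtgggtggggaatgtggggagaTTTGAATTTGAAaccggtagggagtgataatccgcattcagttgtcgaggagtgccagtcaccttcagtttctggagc
CDC20 (chr1:43358731-43359030, + strand): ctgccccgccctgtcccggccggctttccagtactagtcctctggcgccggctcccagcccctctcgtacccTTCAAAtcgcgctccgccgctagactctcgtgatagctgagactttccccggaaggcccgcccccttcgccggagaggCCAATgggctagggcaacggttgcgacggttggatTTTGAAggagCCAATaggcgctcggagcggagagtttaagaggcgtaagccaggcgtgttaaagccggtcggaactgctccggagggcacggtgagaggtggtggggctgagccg
CCNB1 (chr5:69166900-69167199, + strand): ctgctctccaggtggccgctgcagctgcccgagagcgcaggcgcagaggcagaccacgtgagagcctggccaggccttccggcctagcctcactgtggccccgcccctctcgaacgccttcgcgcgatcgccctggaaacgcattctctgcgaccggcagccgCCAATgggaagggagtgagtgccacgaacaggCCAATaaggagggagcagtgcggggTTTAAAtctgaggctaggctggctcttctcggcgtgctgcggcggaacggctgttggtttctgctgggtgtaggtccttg
PLK1 (chr16:23678639-23678938, + strand): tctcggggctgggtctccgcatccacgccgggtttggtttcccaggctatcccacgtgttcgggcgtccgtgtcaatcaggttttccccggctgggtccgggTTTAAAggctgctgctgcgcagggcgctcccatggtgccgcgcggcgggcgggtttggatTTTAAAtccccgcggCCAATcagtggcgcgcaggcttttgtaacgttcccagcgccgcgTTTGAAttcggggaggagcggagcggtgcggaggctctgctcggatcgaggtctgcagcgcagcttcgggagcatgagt
CDK1 (chr10:60778081-60778380, + strand): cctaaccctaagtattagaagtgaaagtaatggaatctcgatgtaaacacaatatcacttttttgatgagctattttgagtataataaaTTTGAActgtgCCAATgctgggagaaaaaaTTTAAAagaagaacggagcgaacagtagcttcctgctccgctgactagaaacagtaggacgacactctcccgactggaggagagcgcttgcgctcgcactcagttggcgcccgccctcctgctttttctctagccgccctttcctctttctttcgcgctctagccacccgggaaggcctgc

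HMMR had 2 adjoining TTTGAA runs beginning 28 and 22 bases before its start, and 5 CCAAT boxes further upstream, of which those at 69 and 66 bases before the start overlap. CCNB1 had TTTAAA at 30 bases before the start with CCAAT at 87 and 55, PLK1 had TTTGAA at 29 with CCAAT at 73, and CDC20 had TTTGAA at 65 with CCAAT at 100 and 55. CDK1 has 2 promoters in the table, and the first listed, shown here, held TTTGAA at 161, CCAAT at 150 and TTTAAA at 131 bases before its start. Of the 55 symbols, 47 had a promoter in the table, 60 promoters in all and not the same 47 genes as on the array. TTTGAA or TTTAAA was found in 45 of these 60 promoters (75%), against 24% of the 35116 promoters of the whole table. CCAAT was found in 47 (78.3%), against 34.6%, and both kinds in 37 (61.7%), against 9.27%. A run of TTTGAA or TTTAAA on the gene's strand beginning within 60 bases before the start was found in 24 (40%), against 4.13%. These letters are a description of the windows and were not tested for binding.

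Across the arrays the genes stood high on the TET1 plasmid arrays and low on the other 4. After each gene was set against its own mean over the 8 arrays, the median over the 47 genes was 0.36 with TET1-CD, 0.25 with mTET1-CD, 0.17 with TET1-FL and 0.23 with mTET1-FL, against -0.23 with the vector. For shTET1#1 it was -0.15 and for the array labelled shTET1#2 -0.37, against -0.26 in shControl. On the 4 plasmid arrays 44, 45, 41 and 41 of the 47 genes lay above their own mean, against 6 with the vector, 11 and 2 in the TET1 shRNA clones and 6 in shControl. The median over all 28946 transcript clusters kept lay between -0.013 and 0.012 on every array. In bulk RNA, more cells in G2 or mitosis and more of these transcripts per cell cannot be told apart.

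**Figure D1:**
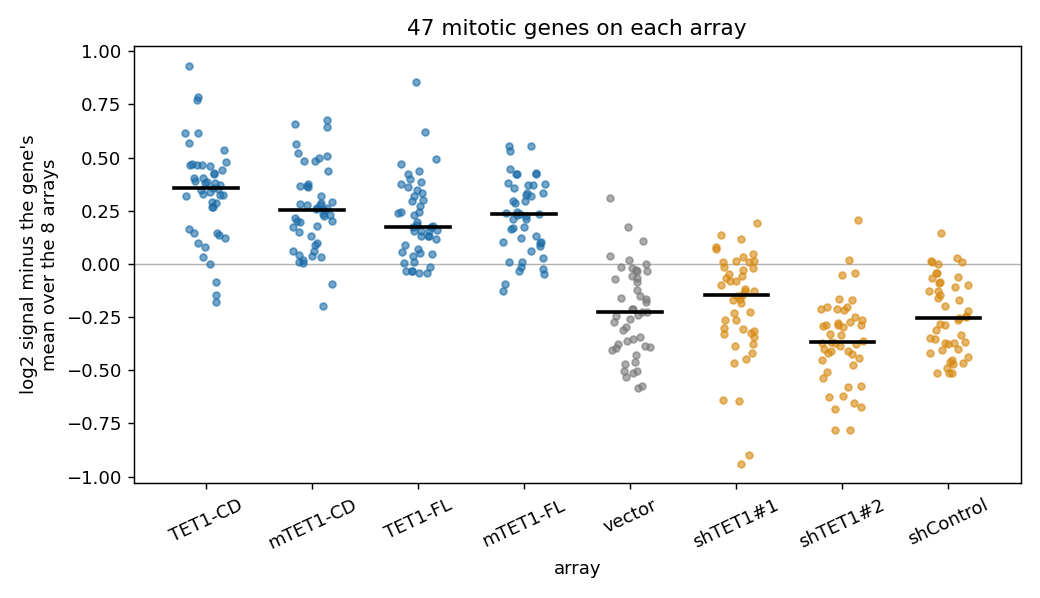
Each point is 1 of the 47 mitotic genes on 1 array, as its log2 signal minus its mean over the 8 arrays (y axis), with arrays on the x axis and black lines at the medians. Medians on the 4 TET1 plasmid arrays (blue) lie between 0.17 and 0.36, and those on the vector array (grey) and the 3 shRNA arrays (orange) lie between -0.37 and -0.15.

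The first comparison was between the TET1 plasmids, 4 in all, and the vector without TET1. Mitotic genes stood higher with the plasmids in 45 of 47 cases, with a median fitted difference of 0.48 on the log2 scale and a range from -0.24 to 1.27, while the median over all 28946 clusters was 0.0014 and 50.2% of them lay above 0. Differences come from 1 limma fit over all clusters, whose 2 residual degrees of freedom are 1 for the gap between shTET1#1 and shTET1#2 and 1 for how far CD and FL disagree on wild-type minus mutant. Its p-values rest on those gaps, since no cultures were replicated by label. None of the 47 genes passed a Benjamini-Hochberg adjusted p of 0.05, and neither did any of the 28946 clusters (0% called), with adjusted p from 0.162 to 0.949 over the genes. At an unadjusted limma p under 0.05, 25 of the 47 genes were higher, against 8.78% of all clusters, and 0 were lower, against 6.26%. Because the list was chosen with earlier results of these data known, these shares and those below describe the list and test nothing.

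Without a test, all 4 plasmid arrays lay above the vector array for 40 of the 47 genes (85.1%), against 27.2% of all clusters and 29.9% of named ones. By plasmid, the median difference from the vector was 0.59 with TET1-CD, 0.50 with mTET1-CD, 0.40 with TET1-FL and 0.44 with mTET1-FL. The 4 differences share 1 vector array, whose own deviation enters each of them. The plasmid arrays were therefore also set beside the shRNA arrays, which were made and handled in another way. All 4 plasmid arrays lay above all 4 other arrays for 32 of the 47 genes (68.1%), against 7.89% of all clusters.

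HMMR, a spindle and centrosome protein that also acts as a hyaluronan receptor, had the largest difference of the 47. Its signal was 10.04 with TET1-CD, 9.77 with mTET1-CD, 9.73 with TET1-FL and 9.66 with mTET1-FL, against 8.53 with the vector. The shRNA arrays stood at 8.17 and 8.33 in shTET1#1 and the array labelled shTET1#2, and at 8.64 in shControl. No plasmid array overlapped any other array. The fitted difference was 1.27 ± 0.15 (SE), a 2.40-fold excess (limma adjusted p = 0.162), and HMMR was the only gene of the list at least 2-fold above the vector on all 4 plasmid arrays, against 0.553% of all clusters.

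CDC20 came second. It stood at 11.15 with TET1-CD, 11.27 with mTET1-CD, 11.20 with TET1-FL and 11.19 with mTET1-FL, against 10.18 with the vector. In the clones it stood at 10.39 (shTET1#1) and 10.26 (the array labelled shTET1#2), against 10.47 in shControl. The plasmid arrays lay close together and above all the others. Its fitted difference was 1.02 ± 0.14 (SE), or 2.03-fold (limma adjusted p = 0.162).

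**Figure D2:**
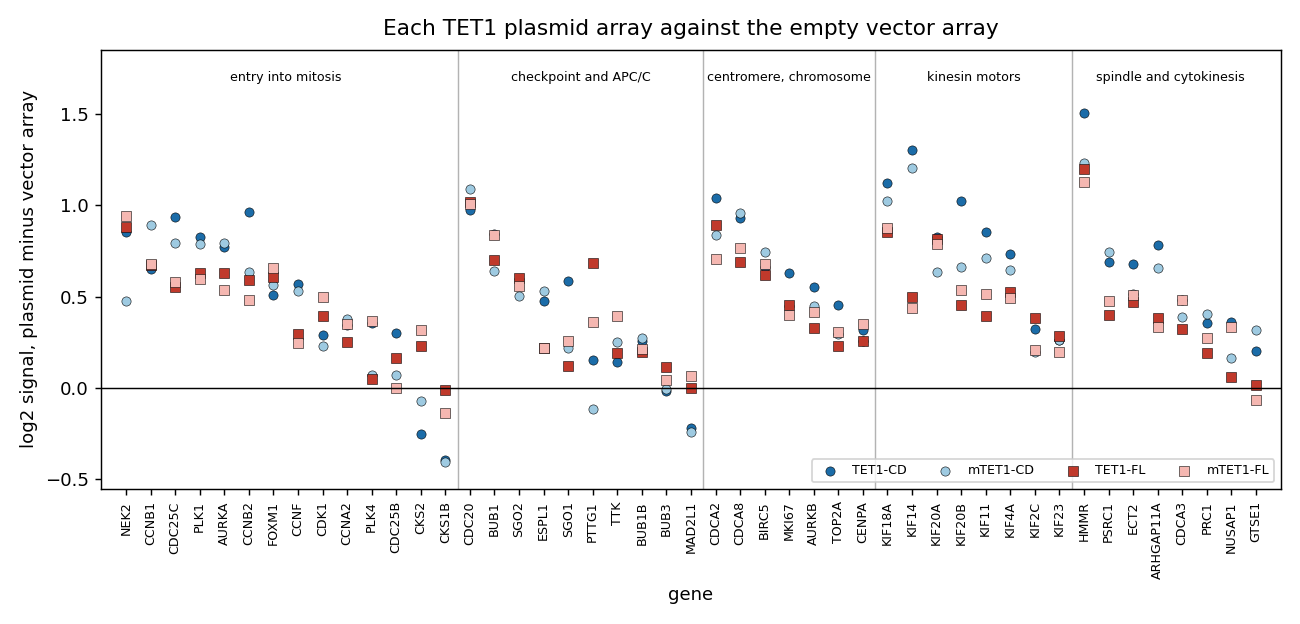
Points give the log2 signal of each TET1 plasmid array minus that of the empty vector array (y axis) for the 47 genes (x axis), grouped by role and ordered by fitted difference. HMMR reaches 1.51 with TET1-CD, most genes lie above 0 with all 4 plasmids, and CKS1B lies below 0 with all 4.

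Among the genes of mitotic entry, 13 of 14 had a fitted difference above 0, with a median of 0.50. NEK2, a centrosome kinase, differed by 0.79, the cyclin gene CCNB1 by 0.72, the phosphatase gene CDC25C by 0.72 and the Polo-like kinase gene PLK1 by 0.71. CCNB1 stood at 8.75, 8.99, 8.77 and 8.78 with the CD wild type and mutant, then the FL wild type and mutant, against 8.10 with the vector. PLK1 stood at 12.10, 12.06, 11.90 and 11.87 in the same order, against 11.28 with the vector. Both were above the vector on every plasmid array and, as HMMR and CDC20, above every shRNA array, where CCNB1 was at 8.66, 8.41 and 8.45 and PLK1 at 11.46, 11.01 and 11.35 in shTET1#1, the array labelled shTET1#2 and shControl.

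The Aurora kinase gene AURKA differed by 0.68, CCNB2 by 0.67, the transcription factor gene FOXM1 by 0.58, CCNF by 0.41, CDK1 by 0.35 and CCNA2 by 0.33. CDK1 was thus among the smaller differences of its group, at 8.38, 8.32, 8.48 and 8.59 with the CD wild type and mutant, then the FL wild type and mutant, against 8.09 with the vector. PLK4, the kinase of centriole duplication, differed by 0.21 and CDC25B by 0.13. CKS1B and CKS2 encode small partners of cyclin-dependent kinases. CKS1B stood at 8.92, 8.91, 9.30 and 9.18 with the 4 plasmids in that order, against 9.32 with the vector, so that it was the only gene of the list below the vector on all 4 (fitted difference -0.24 ± 0.14, SE). CKS2 differed by 0.054, being below the vector with both CD plasmids and above it with both FL plasmids.

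Among checkpoint, anaphase and sister-separation genes 9 of 10 lay above 0, with a median of 0.28. After CDC20 came BUB1, a checkpoint kinase, at 0.75, and SGO2, which protects centromeric cohesion, at 0.56. ESPL1, the separase that cuts cohesin, differed by 0.36, SGO1 by 0.30, PTTG1, the securin that holds separase back, by 0.27, TTK by 0.24 and BUB1B by 0.23. BUB1 stood at 10.40, 10.19, 10.26 and 10.39 with the CD wild type and mutant, then the FL wild type and mutant, against 9.56 with the vector, with no overlap. BUB3, which also works outside the checkpoint, differed by 0.034, and MAD2L1 by -0.097. The PTTG1 probes may also read its near-identical copies, and ESPL1 held the same value, 8.83, on 4 arrays (TET1-FL, mTET1-FL, shTET1#1 and shControl).

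All 7 genes of the centromere, the chromosomal passenger complex and chromosome structure lay above 0, with a median of 0.48. CDCA2, which brings protein phosphatase 1 to chromatin, differed by 0.87, and the passenger subunits CDCA8 (borealin) and BIRC5 (survivin) by 0.84 and 0.67. Their kinase AURKB differed by 0.43, the proliferation marker MKI67 by 0.48, the topoisomerase gene TOP2A by 0.32 and CENPA, the centromeric histone, by 0.29. AURKB stood between 10.91 and 11.14 with the 4 plasmids, against 10.59 with the vector and 10.20, 10.27 and 10.22 in shTET1#1, the array labelled shTET1#2 and shControl. MKI67 stood at 11.47, 11.29, 11.29 and 11.24 with the plasmids, against 10.84 with the vector. In both genes the plasmid arrays did not overlap the others, and for AURKB the vector lay between the plasmids and the clones.

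All 8 kinesin genes were higher with the plasmids, with a median of 0.64, the highest of the 5 roles. KIF18A, which limits chromosome swings at the spindle equator, differed by 0.97, KIF14 by 0.86, the cytokinesis motors KIF20A by 0.76 and KIF20B by 0.67, the bipolar spindle motor KIF11 by 0.62, the chromosome motor KIF4A by 0.60, the microtubule depolymerase KIF2C by 0.28 and the midzone motor KIF23 by 0.25. KIF18A stood at 10.01, 9.91, 9.74 and 9.76 with the CD wild type and mutant, then the FL wild type and mutant, against 8.89 with the vector.

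The remaining 8 spindle and cytokinesis genes were also all above 0, with a median of 0.48. Beyond HMMR these were PSRC1, a spindle protein, at 0.58, ECT2, which activates the cleavage furrow, at 0.54, ARHGAP11A at 0.54, CDCA3 at 0.42, the midzone protein PRC1 at 0.31, the microtubule-binding protein NUSAP1 at 0.23 and GTSE1, which binds microtubules and p53, at 0.12. GTSE1 was the only one of these 8 for which a plasmid array, mTET1-FL, lay below the vector, at 8.20 against 8.27.

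**Figure D3:**
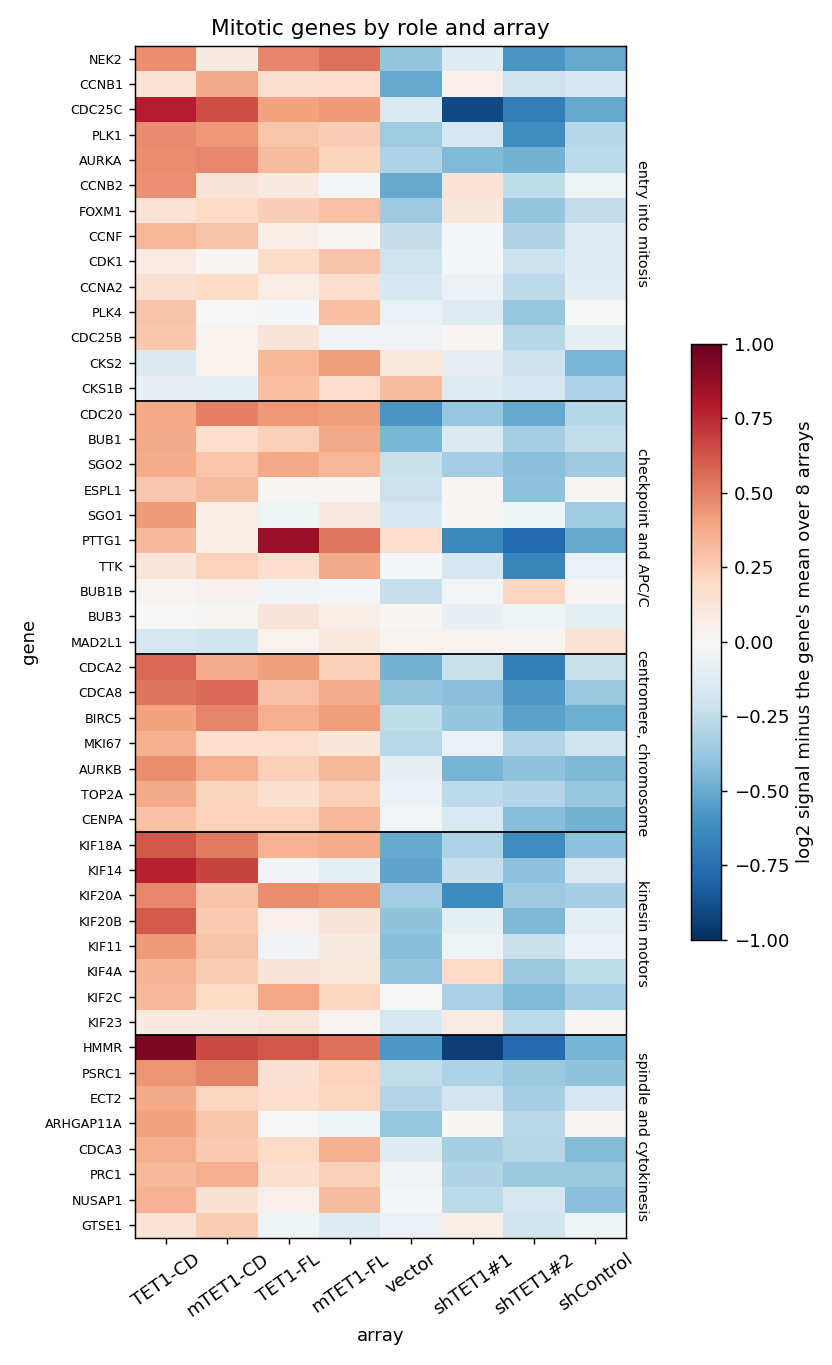
Rows are the 47 genes by role and columns the 8 arrays, with colour giving log2 signal minus the gene's mean over the arrays (red higher, blue lower, colours saturate at 1 and -1). Red fills most of the 4 plasmid columns, and on average over these columns least so the rows of MAD2L1, BUB1B, BUB3 and GTSE1.

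Other genes of cell division were read from lists of 134 further symbols, of which 100 were kept. Of these, 70 lay above 0 with the plasmids and the median was 0.19, against 50.2% above 0 and a median of 0.0014 over all clusters. At an unadjusted limma p under 0.05, 22 of the 100 were higher, against 8.78% of all clusters, and 2 were lower, against 6.26%. The highest and lowest genes of each list were as follows. Among 25 kinetochore and checkpoint genes, 17 were above 0, with the outer kinetochore gene NDC80 highest at 0.92 and KNTC1 lowest at -0.46. Among 17 spindle, motor and cytokinesis genes, 15 were above 0, from STIL at 0.59 to POC1A at -0.21. Condensin and cohesin genes had 7 of 10 above 0, from STAG1 at 0.75 to SMC1A at -0.20, and subunits and inhibitors of the anaphase-promoting complex 11 of 17, from ANAPC10 at 0.62 to ANAPC11 at -0.38. Regulators of mitotic entry and exit had 9 of 14 above 0, from DEPDC1 at 1.01 to CDC14B at -0.44.

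For the transcription factors, 11 of 17 genes of the DREAM, MuvB and E2F lists lay above 0, with a median of 0.32. LIN37, a MuvB subunit, was highest at 1.05 ± 0.14 (SE), with 10.34, 10.01, 10.24 and 10.06 with the CD wild type and mutant, then the FL wild type and mutant, against 9.11 with the vector. TFDP1, a partner of E2F proteins, was lowest at -0.35. Among genes of G1/S and DNA replication 12 of 26 lay above 0, with a median of -0.010. Targets of p53 had 13 of 15 above 0 and a median of 0.76, led by the kinase gene PLK2 at 1.65. The p53 targets thus stood higher on the same arrays as the mitotic genes, which p53 is known to lower, and their part in the result was not tested. CDKN1A, the p21 gene, has no named cluster and was not analysed here.

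**Figure D4:**
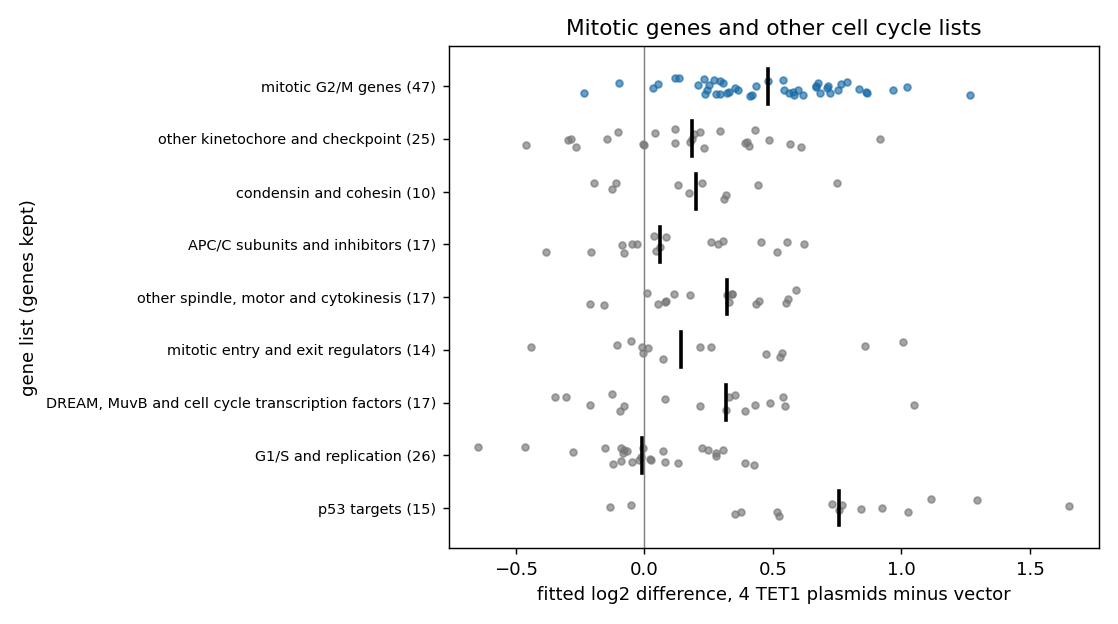
Each point is 1 gene's fitted log2 difference, the 4 TET1 plasmids minus the vector (x axis), by gene list (y axis, with the number of genes kept) and with black lines at the medians. The mitotic genes (blue) have a median of 0.48, the G1/S and replication genes -0.010 and the p53 targets 0.76.

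The second comparison, wild-type minus mutant TET1, asked what depends on catalytic activity. Mitotic genes stood close together in wild-type and mutant plasmid arrays, with a median difference of 0.035 and a range from -0.16 to 0.29, against a median of 0.0027 over all clusters. The medians were 0.094 in CD and -0.023 in FL. None of the 47 genes passed the limma threshold or had an unadjusted p under 0.05, against 0% and 1.96% of all clusters, and the median SE of the 47 differences was 0.14. PTTG1 (0.29), CCNB2 (0.22) and CDC25B (0.20) were highest, and TTK (-0.16), CCNB1 (-0.13) and CKS2 (-0.13) lowest. HMMR differed by 0.27 in CD and 0.067 in FL, and CDC20 by -0.12 and 0.015.

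The third comparison set FL against CD. Mitotic genes stood lower with the FL plasmids in 33 of 47 cases, with a range from -0.79 to 0.50. Their median was -0.10, against 0.0031 over all clusters and -0.022 over named ones. Of all clusters 50.7% lay above 0, and of named ones 45.3%. The further cell division genes were also lower with FL, in 68 of 100 cases and with a median of -0.13. None of the 47 genes passed the adjusted limma threshold, as was so for all clusters (0% called, limma adjusted p = 0.134 at the lowest for the genes). Both FL arrays lay below both CD arrays for 20 of the 47 genes (42.6%), against 25.7% of all clusters, and above both for 8 (17%), against 27.6%. At an unadjusted limma p under 0.05, 1 gene was lower, against 4.87% of clusters, and 3 were higher, against 8.86%.

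KIF14, a kinesin of the midbody, was the 1 gene lower. It stood at 9.36 with TET1-FL and 9.29 with mTET1-FL, against 10.16 with TET1-CD and 10.06 with mTET1-CD, and at 8.86 with the vector. The FL arrays thus lay between the vector and the CD arrays, with a fitted difference of -0.79 ± 0.13 (SE). ARHGAP11A (-0.36) and KIF20B (-0.35) were next. The 3 genes higher with FL were PTTG1 (0.50), CKS2 (0.43) and CKS1B (0.33). PTTG1 stood at 7.88 with TET1-FL and 7.56 with mTET1-FL, against 7.35 with TET1-CD and 7.09 with mTET1-CD.

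The fourth comparison set the TET1 shRNA clones against the control clone. Mitotic genes shared no direction, with 20 of 47 above 0, a median of -0.029 and a range from -0.39 to 0.34. Over all clusters the median was -0.010, and 47.7% lay above 0. The clones differed from each other: the median was 0.066 in shTET1#1, with 30 of 47 genes above the control, and -0.14 in the array labelled shTET1#2, with 12 above. No gene passed the adjusted limma threshold, where 0% of all clusters were called, or had an unadjusted p under 0.05, against 7.93% of all clusters.

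Both clones lay above the control for 10 of the 47 genes (21.3%), against 29.4% of all clusters, and below it for 13 (27.7%), against 33.1%. Both clones were compared with the same control array, whose own deviation enters each difference and these counts. SGO1 (0.34), CKS2 (0.31) and NUSAP1 (0.21) were highest. HMMR was lowest at -0.39 ± 0.17 (SE, limma adjusted p = 0.666), the single clones giving -0.47 (shTET1#1) and -0.31 (the array labelled shTET1#2). TTK (-0.34) and CDC25C (-0.28) followed, TTK being at 9.03 and 8.54 in the clones, against 9.13 in shControl.

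The last comparison set the 3 shRNA clones against the 5 transfected and sorted arrays. Delivery, sorting and handling differ between them and cannot be told apart, and 4 of the 5 transfected arrays carry TET1 plasmids. Mitotic genes were lower in the clones in 45 of 47 cases, with a median of -0.40, against -0.014 over all clusters. Of all clusters 47.8% lay above 0. In limma, 15 of the 47 genes (31.9%) fell at an adjusted p under 0.05, against 3.65% of all clusters, and 0 rose, against 1.76%. The largest were HMMR (-1.17 ± 0.10, SE, limma adjusted p = 0.0224), CDC25C (-1.12) and PTTG1 (-1.03). The other 12 were BIRC5, CDCA8, KIF18A, KIF20A, AURKB, AURKA, CDC20, SGO2, KIF2C, PSRC1, CDCA3 and PRC1, between -0.75 and -0.56. BUB1B (0.11) and MAD2L1 (0.10) were highest and CCNB2 (-0.083) was next.

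These calls did not hold in 3 kinds of alternative. With the control shRNA array against the empty vector array alone, the member median was 0.068, with 28 of 47 above 0 and 0 called, and HMMR stood 0.11 and CDC20 0.29 above the vector. Leaving out any 1 of the 4 plasmid arrays, which leaves 1 residual degree of freedom, also gave 0 calls among the 47 genes and among all clusters. So, for the 47 genes, did dropping the filter on low signal. Leaving out 1 TET1 shRNA clone also leaves 1 residual degree of freedom, yet some of the 47 genes were then still called. The genes counted next only partly overlap those called in the full fit, and HMMR and CDC20 are not among them. All 3 clones lay below all 5 transfected arrays, the vector included, for 15 genes (31.9%), against 8.18% of all clusters. PTTG1 was one of these, at 6.38, 6.25 and 6.52 in shTET1#1, the array labelled shTET1#2 and shControl, against 7.20 with the vector and 7.09 to 7.88 with the plasmids. CDC25C was another, at 6.84, 7.06 and 7.23 in the same clones, against 7.59 with the vector and 8.14 to 8.53 with the plasmids.

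**Figure D5:**
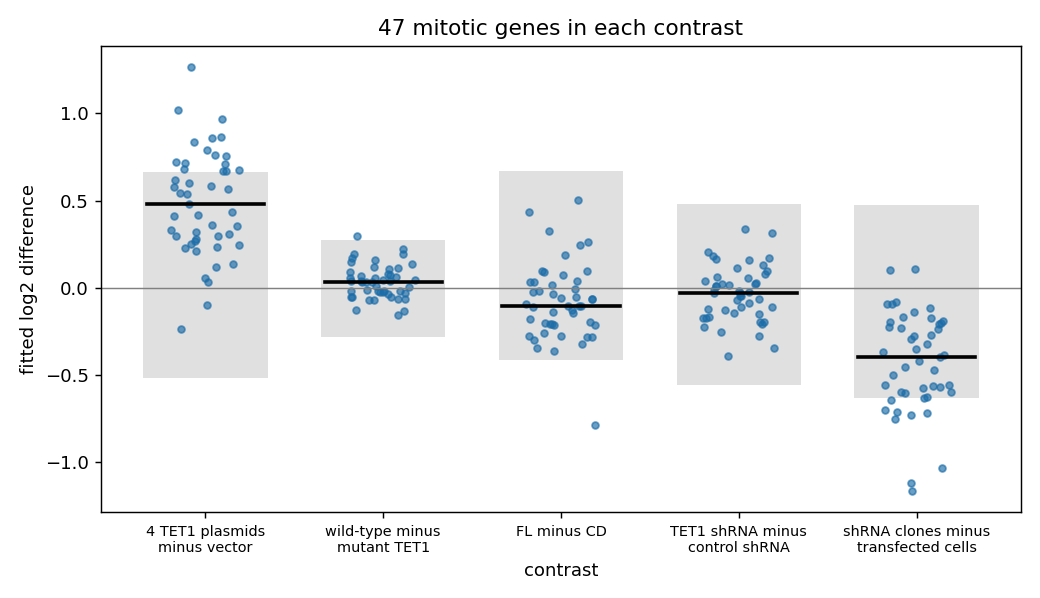
Points are the fitted log2 differences (y axis) of the 47 mitotic genes in 5 contrasts (x axis), black lines their medians, and grey bars the range from the 5th to the 95th percentile of all 28946 clusters. Medians are 0.48 for plasmids minus vector, 0.035 for wild-type minus mutant, -0.10 for FL minus CD, -0.029 for TET1 shRNA minus control shRNA and -0.40 for clones minus transfected cells.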

How the data were processed

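RNA of 8 HEK293T samples was read on Affymetrix arrays, with 100 ng of total RNA labelled per array, per the labels' protocols. The deposited values are log2 signals per transcript cluster, made by the authors with tools that include Expression Console 1.3.1 (Affymetrix) and RMA, per the submitters' processing notes, which give no roles, order or build. RMA as usually run corrects background and normalizes between arrays, so a shift shared by all genes would not be seen. The table had 53981 rows, 364 without values. Names came from the platform annotation, and all 16098 named clusters matched a RefSeq gene number (GRCh38.p14). Clusters with at least 2 of 8 arrays above their own median were kept (28946).

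All arrays entered 1 fit across all genes in limma 3.58.1 run under R 4.3.3 (functions lmFit and eBayes). Its terms were shControl, shTET1, vector, wild-type TET1, mutant TET1 and a construct term coded 0.5 for FL and -0.5 for CD, with Benjamini-Hochberg adjustment over all 28946 clusters at a threshold of 0.05. The fit was also run on simulated data with planted changes and independent noise. That noise holds no deviation shared by the genes of 1 array, so the run does not address groups of 1 array. The members, roles and gene lists, and the alternatives tried, were chosen with earlier results of these data known. Genes named with values are HMMR, CDC20 and 8 textbook members, the 3 highest and 3 lowest members per contrast, and the extremes of each list, and the other members are given with their role. With 1 array per group, except 2 for TET1 shRNA, other differences are given without a test.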

Additional observations from a re-analysis of the deposited data

Results flagged for a closer look

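PLK4, the kinase of centriole duplication, stood apart in opposite directions with the same change of plasmid. Wild-type minus mutant was 0.28 in CD and -0.31 in FL on the log2 scale, and FL minus CD was -0.30 for the wild-type proteins and 0.29 for the mutants. Both pairs of values come from the same arrays and show a single disagreement, not separate ones. Each value compares 1 array with 1 array, and the difference between the constructs was not tested. No other of the 47 genes was at least 1.2-fold apart in opposite directions in these pairs, a limit chosen after the data were seen.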

How the results depend on the processing

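The median over the 47 genes for TET1 plasmids minus vector lay between 0.45 and 0.51 under 14 alternatives of scaling, filter, features, prior and arrays, and 0 genes were called under each. It was 0.45 to 0.51 when 1 array was left out at a time. The medians ranged from -0.023 to 0.094 for wild-type minus mutant without either pair, from -0.16 to -0.058 for FL minus CD without either pair, and from -0.14 to 0.066 for TET1 shRNA minus control shRNA without either clone, with 0 called. For the clones minus transfected cells, the 15 calls became 0 with no filter on low signal, where 135 of all clusters were called. They ranged from 0 to 18 when 1 array was left out: 18 without shTET1#1, 12 without the array labelled shTET1#2 and 0 without any 1 plasmid array, where 0 of all clusters were called. The median ranged from -0.45 to -0.32 in these fits. With control shRNA minus vector alone there were 0 calls, the median was 0.068, and the sign turned for HMMR (0.11), CDC20 (0.29), CCNB1 (0.36), CDK1 (0.085), PLK1 (0.071), AURKA (0.048), MKI67 (0.078), FOXM1 (0.11) and CCNB2 (0.46). CCNB2 ranged from -0.21 without shTET1#1 to 0.046, a turned sign, without the array labelled shTET1#2. With the vector in place of control shRNA, TET1 shRNA minus control turned to -0.20 for NUSAP1 and -0.25 for CKS2. For plasmids minus vector, BUB3 turned to -0.0061 under cyclic loess, and CKS1B to 0.38 with control shRNA in place of the vector, an alternative chosen after seeing the data. The cause of these turns was not tested. The named genes' values were counted as kept when direction and side of the threshold stayed the same. Kept were 194 of 196 for the plasmids, 52 of 54 for TET1 shRNA and 144 of 195 for clones minus transfected cells. For wild-type minus mutant and FL minus CD, 66 of 66 each were kept. In these contrasts and TET1 shRNA the named genes were picked as the highest and lowest members of the same fit. Their counts therefore say little about the other members. None of the 47 genes was called there under any setting, so only direction was at stake. The medians over the 47 genes, given above, changed sign for wild-type minus mutant and for TET1 shRNA. Averaging the clusters of a symbol could not differ, since each gene had 1. No paired analysis was possible because each group but TET1 shRNA holds 1 array, so that no groups share more than replicate number 1, which only names the array. Most groups hold 1 array, and the number of arrays limits every comparison.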

Other observations

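Genes of G1/S and DNA replication, read from the same arrays, were below the control clone in 22 of 26 cases in the TET1 shRNA fit, with a median of -0.12 against -0.010 over all clusters, from CCNE1 at 0.20 to the replicative helicase gene MCM5 at -0.47. Of all clusters 47.7% lay above 0, and both clones were set against the same control array, whose own deviation enters this count. None of the 26 was called by limma at an adjusted p under 0.05, against 0% of all clusters. Of the 26, 1 had an unadjusted limma p under 0.05, against 7.93%. Among the 100 further cell division genes kept, 7 were lower in the shRNA clones than in transfected cells at an adjusted limma p under 0.05, against 3.65% of all clusters, and 1, ANAPC1, was higher, against 1.76%. LIN37 was the lowest of them at -1.49 ± 0.092 (SE, limma adjusted p = 0.0139). Its signal was 8.54, 8.45 and 8.39 in shTET1#1, the array labelled shTET1#2 and shControl. The vector array, at 9.11, lay between these clones and the TET1 plasmid arrays, at 10.01 to 10.34. As stated above, calls in this contrast did not hold when a plasmid array was left out. The transfected arrays include the TET1 plasmids, so delivery and plasmid are mixed in it.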
